A study of Mus musculus with 24 samples.

Results

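The genes described here carry the insulin signal from the receptor at the hepatocyte surface to the transcription factors it restrains. They are 10 in number, of 21495 genes tested: the insulin receptor Insr, the receptor substrates Irs1 and Irs2, the receptor adaptors Grb10 and Grb14, the kinases Akt1 and Akt2, the transcription factors Foxo1 and Foxo3, and the pseudokinase gene Trib1. They were taken by name, as genes of this pathway, with earlier results of these data known. Each was read from the probe that was brightest on average over all arrays, and 25 probes carried 1 of the 10 names, of which 22 were kept for testing. The livers came from male mice of 12 weeks that were fed ad libitum or had been fasted for 24 h, all killed at ZT16, which is counted in hours from lights on. All mice carried floxed p110α alleles. Mice labelled LKO also carried Cre recombinase under the albumin promoter, which removes part of Pik3ca in hepatocytes and leaves it in other liver cells, and mice labelled LWT were littermates without Cre. The 4 groups, LWT_Fed, LWT_Fasted, LKO_Fed and LKO_Fasted, held 6 mice each, with 1 array per mouse.

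Insulin binds its receptor, which phosphorylates the IRS proteins, and these recruit phosphoinositide 3-kinase, whose catalytic subunit p110α is encoded by Pik3ca. The lipid it makes brings AKT to the membrane, where AKT is activated, and AKT phosphorylates FOXO proteins and keeps them out of the nucleus. In the unfed liver FOXO proteins enter the nucleus and drive genes of glucose production, and Irs2 is a known FOXO target, so that the pathway's own input is under its control. Most of this regulation is by phosphorylation, which an mRNA measurement does not see.

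Irs2, whose group means spanned the widest range of the 10 genes, was read by 1 probe. That probe lies on chromosome 8 at 11004490 to 11004549 of mm9, on the minus strand, and was designed on NM_001081212. Its sequence is shown because every Irs2 value below rests on it. Beside it are the upstream regions of Irs2 and Irs1, from RefSeq's annotation of GRCm38.p6. They are shown because both hold a letter match to an insulin response element. The substrates moved in opposite directions with fasting in LKO, and a link to the match was not tested. The 250 bases before the start lie at chr8:11008930-11009179 for Irs2 and at chr1:82291440-82291689 for Irs1, both on the minus strand, and capitals mark the match.
Irs2 probe: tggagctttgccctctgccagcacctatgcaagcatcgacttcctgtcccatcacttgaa
Irs2 upstream: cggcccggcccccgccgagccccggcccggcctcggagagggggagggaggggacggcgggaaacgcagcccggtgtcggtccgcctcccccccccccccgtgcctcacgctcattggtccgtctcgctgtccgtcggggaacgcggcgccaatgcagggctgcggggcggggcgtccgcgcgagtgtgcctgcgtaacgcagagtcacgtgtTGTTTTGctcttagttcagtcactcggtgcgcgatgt
Irs1 upstream: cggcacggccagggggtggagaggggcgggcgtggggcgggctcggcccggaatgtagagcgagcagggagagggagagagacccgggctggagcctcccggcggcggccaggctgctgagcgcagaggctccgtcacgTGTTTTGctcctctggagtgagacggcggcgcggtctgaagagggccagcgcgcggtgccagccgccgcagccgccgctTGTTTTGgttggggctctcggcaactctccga
The element was searched as CAAAACA or its reverse complement TGTTTTG, and begins 37 bases before the start of Irs2, and 111 and 32 bases before that of Irs1. Of 32851 promoters of 300 bases, from 250 before to 50 after the start, 6.28% hold it. A FOXO site, searched as GTAAACA on both strands, is in 3.65% of them, and a cAMP response element, TGACGTCA, is in 1.79%. RefSeq promoters were matched for 8 of the 10 genes, 13 promoters in all, and 3 held any of these motifs. The other was 1 of the 2 Akt1 promoters, with a FOXO site from 161 bases before the start. A match is a description of letters and not evidence of binding.

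The targeted gene was checked first. The Pik3ca probe had a log2 signal of 11.91 ± 0.21 in LWT_Fed and 12.54 ± 0.26 in LKO_Fed (SD, n = 6 each), higher in the arrays labelled LKO (log2 fold change 0.58, SE 0.10, limma adjusted p = 0.000533). In fasted mice the difference was -0.02 (adjusted p = 0.919). This probe shows no lower signal in LKO, and its place relative to the deleted part was not examined, so it does not check the labels. The share of spots well above background ran from 54.7% to 63.0% over the arrays. All 6 hepatocyte markers (Alb, Ttr, Apoa1, Cps1, Cyp2e1 and Serpina1c) were measured, and their summed signal ranged from 1806200 to 1846800 in LWT_Fed, 1794500 to 1896600 in LWT_Fasted, 1822100 to 1866200 in LKO_Fed and 1627700 to 1814600 in LKO_Fasted. The sum of the 6 Kupffer cell markers was at most 37097 on every array but LKO_Fasted replicate 6, at 71020. Of 28 measured markers of other liver, blood and pancreas cells, 3 rose and 8 fell with fasting in LWT and 3 rose and 5 fell in LKO, with Krt19 (cholangiocyte), Alas2 (erythroid), Lep (adipocyte), Lrat (stellate cell) and Cela1 (pancreas) falling and Sox9 (cholangiocyte) and Dcn (stellate cell) rising in both. Of the same 28, 7 were lower in fed LKO mice (Krt19, Epcam, Pecam1, Lyve1, Alas2, Cela1 and Colec11) and 5 in fasted LKO mice (Krt19, Epcam, Alas2, Cela1 and Amy2a5), and none was higher. By the same rule, an adjusted p of at most 0.05, 21.7% of all genes rose and 23.6% fell with fasting in LWT. In LKO these shares were 20.4% and 22.9%. Between genotypes, 10.7% were higher and 9.98% lower in fed LKO mice, and 11.0% and 11.6% in fasted LKO mice. The summed signal of the 2 measured pancreas markers had a median of 7981 in LKO_Fasted against 13312 in LWT_Fasted. The part of these differences in the results below was not tested. On the second principal component (13.6% of the variance) LKO_Fasted replicates 1 and 2 lay at -35.1 and -31.3 and the other 4 LKO_Fasted arrays between -2.92 and -1.40, where LKO_Fed arrays lay between -29.0 and -19.1 and LWT arrays between 15.2 and 27.0. LKO_Fasted was thus split, with the pair on the side of LKO_Fed and the other 4 between LKO_Fed and LWT. The calls lost without that pair, for Akt2 and Foxo3, are given with those genes. In liver RNA, fewer cells of a type and less RNA per cell cannot be told apart.

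**Figure D1:**
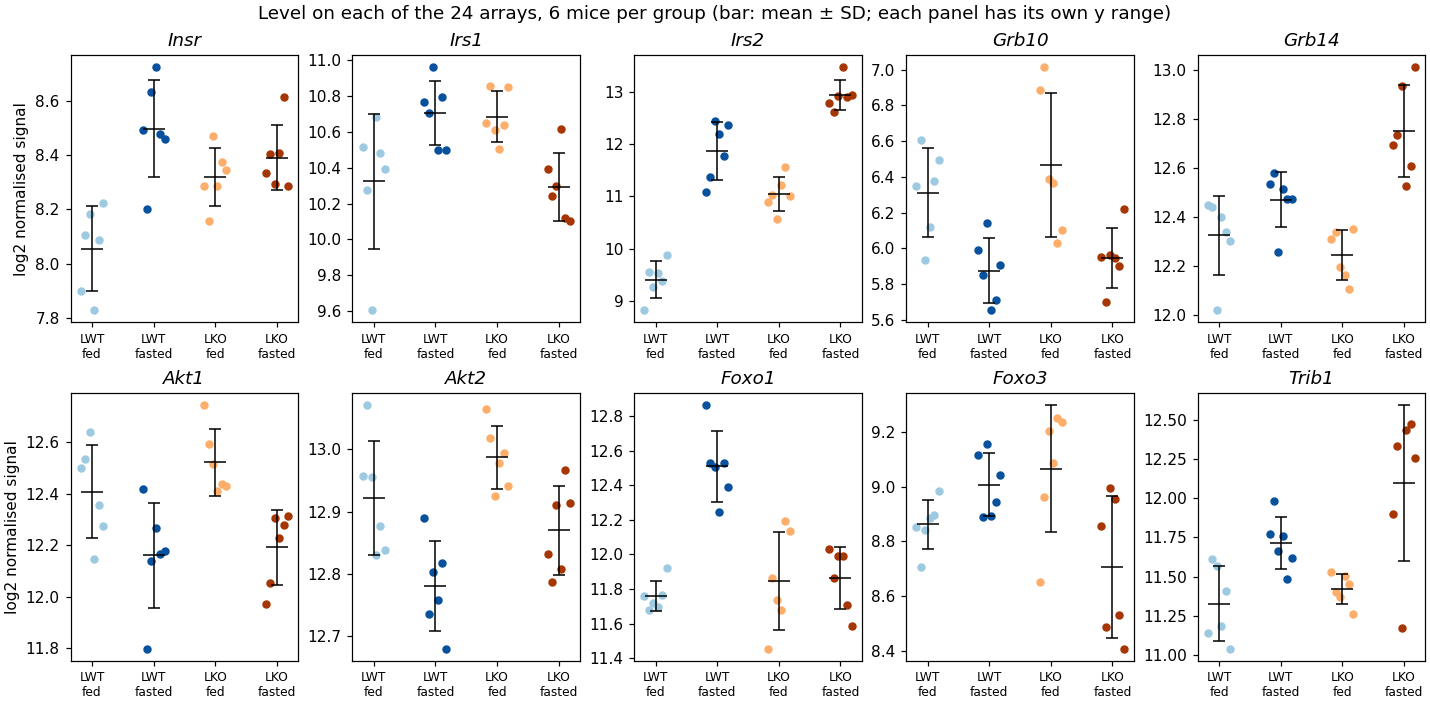
Normalised log2 signal (y axis, a separate range in each panel) of the 10 genes on each of the 24 arrays, by group (x axis), with points for mice and bars for the mean ± SD of 6 mice. Irs2 separates LWT_Fed, at 8.82 to 9.87, from every other group, and Foxo1 stands high in LWT_Fasted alone.

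The response to fasting was compared within each genotype. In LWT, 4 of the 10 genes rose (Irs2, Foxo1, Insr and Trib1) and 2 fell (Grb10 and Akt2) at an adjusted p of at most 0.05. Of all genes tested, 21.7% rose and 23.6% fell by this rule. In LKO, 3 rose (Irs2, Trib1 and Grb14) and 5 fell (Grb10, Irs1, Akt1, Foxo3 and Akt2), where 20.4% of all genes rose and 22.9% fell. With a fold change above 1.5 as well, Irs2 and Foxo1 passed in LWT, where 10.1% of all genes passed. Irs2 and Trib1 passed in LKO, where 12.8% did, and Trib1 did so narrowly, at 1.501-fold. Irs2, Trib1, Grb10 and Akt2 thus moved the same way in both genotypes, and the median log2 fold change of the 10 genes was 0.19 in LWT and -0.03 in LKO, beside -0.01 and -0.02 over all genes.

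Genotypes were compared within each feeding state. In fed mice Irs2 and Insr were higher in LKO and none of the 10 was lower, against 10.7% of all genes higher and 9.98% lower. In fasted mice Irs2 and Grb14 were higher and Foxo1, Irs1 and Foxo3 were lower, against 11.0% and 11.6% of all genes. The fold minimum left Irs2 in fed mice (3.96% of all genes) and Irs2 and Foxo1 in fasted mice (4.11%). The fasting response itself differed between genotypes, by the interaction term, for 5 genes. It was lower in LKO for Foxo1, Irs1, Insr and Foxo3, where 4.99% of all genes were called in that direction, and higher for Grb14, where 5.35% were. Foxo1 and Irs1 passed the fold minimum too, as did 3.54% of all genes. These comparisons share groups with one another and are not independent.

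**Figure D2:**
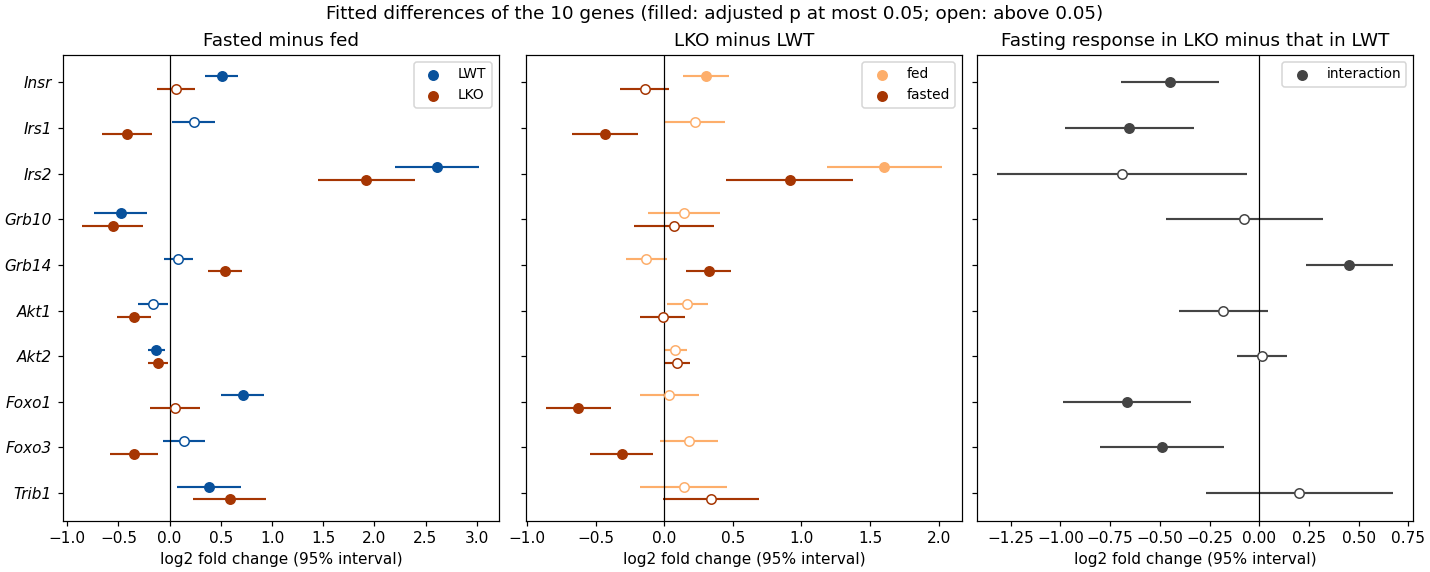
Fitted log2 fold changes (x axis) of the 10 genes (y axis) with 95% intervals, for fasting in each genotype, for LKO against LWT in each feeding state, and for the difference between the fasting responses. Filled points have an adjusted p of at most 0.05, and the 4 genes left of 0 with filled points in the last panel are Insr, Irs1, Foxo1 and Foxo3.

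At the top of the pathway stands the receptor. Insr had a log2 signal from 7.83 to 8.22 with a median of 8.10 in LWT_Fed, and from 8.20 to 8.72 with a median of 8.48 in LWT_Fasted. In LKO it lay at 8.16 to 8.47 (median 8.31) in the fed state and 8.29 to 8.61 (median 8.37) in the fasted state. LWT_Fed had the lowest median, and the groups overlapped in each of the 4 comparisons. Insr rose 1.42-fold with fasting in LWT (log2 fold change 0.51, SE 0.08, adjusted p = 1.34e-05) and changed by 0.06 in LKO (95% interval -0.12 to 0.25, adjusted p = 0.61). Fed LKO mice exceeded fed LWT mice by 0.30 (adjusted p = 0.00964), and the difference in fasted mice was -0.14 (adjusted p = 0.263). The interaction was -0.45 (SE 0.12, adjusted p = 0.0199) and did not pass without array weights (-0.37, adjusted p = 0.0729). The other Insr probe, on the same transcript, gave 0.30 for fasting in LWT (adjusted p = 0.00101), but neither its fed genotype difference of 0.11 (adjusted p = 0.282) nor its interaction of -0.20 passed (adjusted p = 0.24).

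Irs2, an adaptor that links the receptor to phosphoinositide 3-kinase in liver, had the largest changes of the 10 genes in each of the 4 comparisons of groups. Its log2 signal was 8.82 to 9.87 with a median of 9.46 in LWT_Fed and 11.09 to 12.45 with a median of 11.98 in LWT_Fasted. It was 10.57 to 11.56 with a median of 11.02 in LKO_Fed and 12.61 to 13.48 with a median of 12.91 in LKO_Fasted. The order of the group means was LWT_Fed (9.40 ± 0.35), LKO_Fed (11.05 ± 0.33), LWT_Fasted (11.87 ± 0.56) and LKO_Fasted (12.94 ± 0.29, SD, n = 6 each), and LKO_Fed and LWT_Fasted were the neighbours whose mice overlapped. In all 4 comparisons the mice of 1 group lay clear of the other.

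Fasting raised Irs2 6.11-fold in LWT (log2 fold change 2.61, SE 0.20, adjusted p = 7.84e-10) and 3.79-fold in LKO (1.92, SE 0.23, adjusted p = 5.01e-07). The arrays labelled LKO exceeded those labelled LWT 3.04-fold in the fed state (1.60, SE 0.20, adjusted p = 2.45e-05) and 1.88-fold in the fasted state (0.91, SE 0.22, adjusted p = 0.00525). On each of the 3 slides all these differences had the same sign, with 2.28 to 2.59 for fasting in LWT and 0.89 to 1.18 for genotype in fasted mice. The smaller response in LKO was not past the threshold (interaction -0.69, 95% interval -1.32 to -0.06, adjusted p = 0.155). It passed once LWT_Fasted replicate 1 was left out (-0.89, adjusted p = 0.0484).

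Irs1, the other main receptor substrate, did not follow Irs2. It lay at 9.61 to 10.68 with a median of 10.44 in LWT_Fed, 10.50 to 10.96 with a median of 10.73 in LWT_Fasted, 10.50 to 10.86 with a median of 10.64 in LKO_Fed, and 10.104 to 10.61 with a median of 10.27 in LKO_Fasted. LKO_Fasted was the low group by its median, and 1 LWT_Fed mouse, replicate 3, lay below all others. Its array had the lowest weight in the fit (0.315, where the highest was 1.861). Irs1 fell 1.34-fold with fasting in LKO (log2 fold change -0.42, SE 0.12, adjusted p = 0.00618), whereas the value in LWT was 0.23 (95% interval 0.02 to 0.45, adjusted p = 0.0665). The interaction was -0.65 (SE 0.16, adjusted p = 0.011), with the LKO difference negative and the LWT difference positive on each of the 3 slides. Fasted LKO mice were 1.35-fold lower than fasted LWT mice (-0.43, adjusted p = 0.00968). The LWT change passed when LWT_Fed replicate 4 (0.32, adjusted p = 0.0164), LWT_Fasted replicate 6 (0.29, adjusted p = 0.0364) or LWT_Fasted replicate 4 (0.28, adjusted p = 0.0443) was left out. It also passed without array weights (0.38, adjusted p = 0.0319), without the slide term (0.25, adjusted p = 0.0492), with normexp (0.26, adjusted p = 0.0326) and with the processed signal (0.27, adjusted p = 0.039), the last of which also called the fed genotype difference (0.29, adjusted p = 0.0499).

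Grb10 and Grb14 bind the activated receptor and dampen its signal. Grb14 lay at 12.02 to 12.45 with a median of 12.37 in LWT_Fed, 12.26 to 12.58 with a median of 12.49 in LWT_Fasted, 12.11 to 12.35 with a median of 12.25 in LKO_Fed and 12.53 to 13.01 with a median of 12.71 in LKO_Fasted. All 6 LKO_Fasted mice were above all 6 LKO_Fed mice. Grb14 rose 1.45-fold with fasting in LKO (log2 fold change 0.54, SE 0.08, adjusted p = 9.78e-06) and changed by 0.09 in LWT (adjusted p = 0.332), with an interaction of 0.45 (SE 0.11, adjusted p = 0.00953). In fasted mice it was 1.25-fold higher in LKO (0.32, adjusted p = 0.00483). The other 2 kept probes, each designed on another transcript, gave interactions of 0.12 (adjusted p = 0.533) and 0.01 (adjusted p = 0.98). For fasting in LKO they gave 0.15 (adjusted p = 0.135) and -0.03 (adjusted p = 0.783), and for genotype in fasted mice 0.19 (adjusted p = 0.0941) and 0.19 (adjusted p = 0.115). The mean over the 3 probes kept the calls for fasting in LKO (0.22, adjusted p = 0.0128) and for genotype in fasted mice (0.24, adjusted p = 0.0147) and lost the interaction (0.19, adjusted p = 0.188). Without array weights the brightest probe's interaction was 0.36 (adjusted p = 0.0859).

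Grb10 was dim, with log2 signals from 5.65 to 7.02, and was well above background on 23 of 24 arrays. Its medians were 6.36 in LWT_Fed, 5.88 in LWT_Fasted, 6.38 in LKO_Fed and 5.95 in LKO_Fasted, low in the fasted groups of both genotypes, with overlap. It fell 1.39-fold with fasting in LWT (-0.48, SE 0.12) and 1.47-fold in LKO (-0.55, SE 0.14), both with an adjusted p of 0.00319. With the scanner's processed signal, background-corrected and scaled to each array's 75th percentile in place of quantile normalisation, the changes were -1.10 and -1.26. Genotype differences were 0.14 in fed mice (adjusted p = 0.47) and 0.07 in fasted mice (adjusted p = 0.78), and 0.39 (adjusted p = 0.282) and 0.23 (adjusted p = 0.609) with the processed signal. The fed difference ran from 0.02 without LKO_Fed replicate 1 to 0.25 without LKO_Fed replicate 5.

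Akt1 and Akt2 are the kinases that carry the signal on. The group means of Akt2 had the narrowest range of the 10 genes. Akt2 lay at 12.83 to 13.07 (median 12.92) in LWT_Fed, 12.68 to 12.89 (median 12.78) in LWT_Fasted, 12.93 to 13.06 (median 12.99) in LKO_Fed and 12.79 to 12.97 (median 12.87) in LKO_Fasted, with fasted mice lower in each genotype and the groups overlapping in each of the 4 comparisons. It fell by 0.13 on the log2 scale in LWT (SE 0.04, adjusted p = 0.00988) and fell by 0.11 in LKO (SE 0.05, adjusted p = 0.0443). The LKO call was lost on leaving out any of 9 of the 24 arrays, with values from -0.13 to -0.10 over all of them. The LWT call was lost without LWT_Fasted replicate 6 (-0.11, adjusted p = 0.0542). Without LKO_Fasted replicates 1 and 2 the LKO value was -0.10 (adjusted p = 0.153). The other 2 Akt2 probes fell more with fasting in LKO (-0.26, adjusted p = 0.00903, and -0.35, adjusted p = 0.00287) and did not pass in LWT (-0.10, adjusted p = 0.222, and -0.13, adjusted p = 0.195). The interactions of these 2 probes did not pass (-0.16, adjusted p = 0.36, and -0.22, adjusted p = 0.248). The mean over the 3 probes was -0.24 in LKO (adjusted p = 0.00395) and -0.12 in LWT (adjusted p = 0.0844).

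Akt1 lay at 12.15 to 12.64 (median 12.43) in LWT_Fed, 11.80 to 12.42 (median 12.17) in LWT_Fasted, 12.41 to 12.74 (median 12.48) in LKO_Fed and 11.97 to 12.31 (median 12.25) in LKO_Fasted. The LKO groups did not overlap and the LWT groups did. Akt1 fell 1.27-fold with fasting in LKO (-0.35, SE 0.08, adjusted p = 0.00136). The LWT value was -0.17 (adjusted p = 0.0594) and passed without LWT_Fed replicate 4 (-0.21, adjusted p = 0.0224), LWT_Fasted replicate 4 (-0.21, adjusted p = 0.0222) or LWT_Fasted replicate 1 (-0.20, adjusted p = 0.0329). It also passed with median centring (-0.21, adjusted p = 0.0151), without array weights (-0.25, adjusted p = 0.0326), with normexp (-0.18, adjusted p = 0.0412) and with the processed signal (-0.22, adjusted p = 0.0186). Genotype differences in the brightest probe did not pass, nor did its interaction (-0.18, adjusted p = 0.308). A dimmer Akt1 probe was 0.41 higher in fed LKO mice (adjusted p = 0.00116), and fell by 0.35 with fasting in LKO (adjusted p = 0.00389). The remaining probe gave -0.10 (adjusted p = 0.307) and -0.04 (adjusted p = 0.716) for these comparisons. The mean over the 3 probes called the fed genotype difference (0.16, adjusted p = 0.0429).

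FOXO1 is the main FOXO factor of the hepatocyte. Foxo1 lay at 11.68 to 11.92 with a median of 11.74 in LWT_Fed, and at 12.25 to 12.86 with a median of 12.51 in LWT_Fasted. In LKO it lay at 11.46 to 12.20 (median 11.80) fed and 11.59 to 12.03 (median 11.93) fasted. Every LWT_Fasted mouse was above every mouse of the other groups. Foxo1 rose 1.64-fold with fasting in LWT (log2 fold change 0.71, SE 0.10, adjusted p = 6.18e-06) and its LKO value was 0.05 (95% interval -0.19 to 0.29, adjusted p = 0.765). The interaction was -0.66 (SE 0.16, adjusted p = 0.0097). Fasted LKO mice were 1.54-fold below fasted LWT mice (-0.63, adjusted p = 0.00047), and fed mice differed by 0.04 (95% interval -0.18 to 0.25, adjusted p = 0.841).

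The other Foxo1 probe gave the same pattern, with 0.78 for fasting in LWT (adjusted p = 1.41e-06), 0.20 in LKO (adjusted p = 0.167), -0.60 for genotype in fasted mice (adjusted p = 0.000567) and an interaction of -0.58 (adjusted p = 0.0188). Within slides, the LWT fasting difference was 0.58 to 0.96 and the fasted genotype difference -0.83 to -0.53. Of the 5 genes with an interaction, Foxo1 alone had it on more than 1 probe, and Irs1 has no other probe.

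Foxo3, a related factor, lay at 8.71 to 8.99 (median 8.87) in LWT_Fed, 8.89 to 9.16 (median 8.99) in LWT_Fasted, 8.65 to 9.25 (median 9.14) in LKO_Fed and 8.41 to 8.996 (median 8.69) in LKO_Fasted. The groups overlapped, and LKO_Fasted held the lowest mice. It fell with fasting in LKO (-0.35, SE 0.11, adjusted p = 0.0163), where the LWT value was 0.14 (adjusted p = 0.258). The fed genotype difference was 0.18 (adjusted p = 0.229) and passed without LKO_Fed replicate 1 (0.30, adjusted p = 0.0302). Its genotype difference in fasted mice (-0.31, adjusted p = 0.0493) and its interaction (-0.49, SE 0.15, adjusted p = 0.0422) sat at the threshold. Leaving out any of 19 of the 24 arrays lost the former and any of 14 lost the latter. Over all 24 arrays left out, the values ran from -0.41 to -0.24 and from -0.62 to -0.41. The fasted genotype call was also lost without LKO_Fasted replicates 1 and 2 (-0.34, adjusted p = 0.0649) and in the authors' table (-0.31, adjusted p = 0.0502). The LKO fall was lost without LKO_Fed replicate 5 or LKO_Fasted replicate 6, with values from -0.48 to -0.27 over all arrays left out, and with those groups fitted alone (-0.36, adjusted p = 0.0659). The mean over the 3 Foxo3 probes gave -0.14 for it (adjusted p = 0.211). The other 2 probes gave -0.18 (adjusted p = 0.24) and 0.12 (adjusted p = 0.362) for fasting in LKO, 0.07 (adjusted p = 0.612) and 0.28 (adjusted p = 0.0136) for fasting in LWT, and interactions of -0.25 (adjusted p = 0.343) and -0.16 (adjusted p = 0.501).

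TRIB1 is a pseudokinase that directs proteins to degradation, and its relatives bind AKT. Trib1 lay at 11.04 to 11.61 (median 11.30) in LWT_Fed, 11.49 to 11.98 (median 11.71) in LWT_Fasted, 11.26 to 11.53 (median 11.43) in LKO_Fed and 11.17 to 12.47 (median 12.29) in LKO_Fasted. LKO_Fasted replicate 3, at 11.17, was the only LKO_Fasted mouse as low as fed mice. Trib1 rose with fasting in LKO (0.59, SE 0.17, adjusted p = 0.00813) and in LWT (0.38, SE 0.15, adjusted p = 0.0401). The LWT call was lost on leaving out any of 8 arrays, with values from 0.34 to 0.44 over all arrays left out. With the mean over the 3 probes the LWT value was 0.23 (adjusted p = 0.0864) and the fasted genotype difference passed (0.42, adjusted p = 0.015), and with the LKO groups fitted alone the LKO value was 0.58 (adjusted p = 0.0522). Without LKO_Fasted replicate 3 the LKO rise was 0.85 (adjusted p = 2.31e-06), the fasted genotype difference went from 0.34 (adjusted p = 0.156) to 0.60 (adjusted p = 0.000483), and the interaction from 0.20 (adjusted p = 0.624) to 0.46 (adjusted p = 0.0448).

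The other 2 Trib1 probes rose with fasting in LKO by 1.01 (adjusted p = 1.31e-05) and 0.55 (adjusted p = 0.000212). In LWT the former rose by 0.40 (adjusted p = 0.0169) and the latter gave -0.10 (adjusted p = 0.417). Both were higher in LKO among fasted mice, by 0.48 (adjusted p = 0.0249) and 0.44 (adjusted p = 0.00361). The latter probe is placed on the opposite strand to the first, was designed on another transcript, was well above background on 20 of 24 arrays, and alone of the Trib1 probes passed the interaction (0.64, adjusted p = 0.00589).

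**Figure D3:**
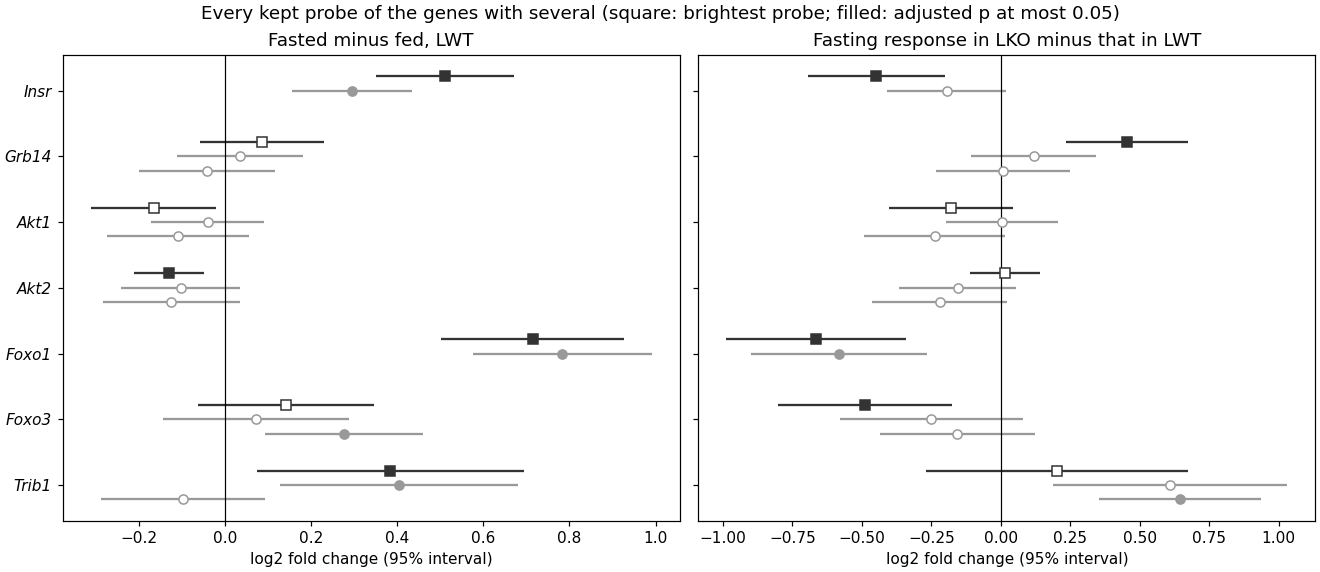
Log2 fold change with 95% interval (x axis) of every kept probe of the 7 genes with several (y axis), for fasting in LWT and for the difference between the fasting responses, with squares for the brightest probe and filled symbols for an adjusted p of at most 0.05. Foxo1 is the gene whose probes all pass in both panels.

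The rest of the pathway was read from lists. Their counts stand beside 21.7% of all genes that rose and 23.6% that fell with fasting in LWT, and 20.4% and 22.9% in LKO. Between genotypes, 10.7% were higher and 9.98% lower in LKO among fed mice, and 11.0% and 11.6% among fasted mice. The interaction was called higher in LKO for 5.35% of all genes and lower for 4.99%. Of 14 other receptors and adaptors measured, 4 rose and 3 fell with fasting in LWT, and 4 rose and 2 fell in LKO. Sh2b1, an adaptor that enhances receptor signalling, rose by 0.43 in LWT (adjusted p = 1.05e-06), and by 0.35 among LKO mice (adjusted p = 6.71e-05), while Sh2b2 fell by 0.63 in LWT (adjusted p = 0.0024). None of the 14 differed between fed genotypes and 1 did between fasted genotypes (Sh2b2, 0.53 higher in LKO, adjusted p = 0.0377). The list's median log2 fold change was 0.11 in LWT and 0.12 in LKO for fasting. None had an interaction past the threshold.

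Of 16 phosphatases and other brakes, 7 rose and 2 fell in LWT and 7 rose and 3 fell in LKO. Trib3, a pseudokinase that binds AKT, rose 2.33-fold in LWT (1.22, adjusted p = 6.77e-07) and 2.16-fold among LKO mice (1.11, adjusted p = 1.43e-05), and was 0.56 higher in fed LKO mice (adjusted p = 0.0119). Ptprf, a receptor phosphatase that acts on the insulin receptor, fell by 0.65 in LWT (adjusted p = 7.59e-05) and, among LKO mice, fell by 1.03 (adjusted p = 1.45e-06). Between genotypes 1 was higher and 1 lower in fed mice, and 2 higher and 1 lower in fasted mice. Ptpn1, which dephosphorylates the receptor, was 0.25 higher in fasted LKO mice (adjusted p = 0.00769).

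Of 17 kinases and regulators below phosphoinositide 3-kinase, 9 rose and 1 fell in LWT, and 6 rose and 3 fell in LKO, with median log2 fold changes of 0.20 and 0.09. Pdpk1, which phosphorylates AKT, rose by 0.58 in LWT (adjusted p = 2.23e-07), and by 0.86 among LKO mice (adjusted p = 4.25e-09). Rheb, an activator of mTORC1, was 0.56 higher in fed LKO than in fed LWT mice (adjusted p = 1.01e-05) and its fasting response was smaller in LKO (interaction -0.43, adjusted p = 0.00839). Sgk3 was lower in LKO in fed (-0.48, adjusted p = 0.0174) and in fasted mice (-0.75, adjusted p = 0.00125). In all, 1 was higher and 2 lower in fed LKO mice, and 2 higher and 3 lower in fasted LKO mice. An interaction was called for 2, both lower, where 4.99% of all genes were called in that direction.

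Of 11 forkhead factors and cofactors measured, 6 rose and 1 fell in LWT, and 4 rose and 1 fell in LKO. Crtc2, a coactivator of CREB, rose by 0.71 in LWT (adjusted p = 3.58e-10), and by 0.49 among LKO mice (adjusted p = 5.36e-07), and Foxk2 fell by 0.65 in LKO (adjusted p = 0.000155). Between genotypes 1 of the 11 was higher in fed and 1 in fasted mice, and none had an interaction past the threshold.

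Of 16 genes known as FOXO targets, 9 rose and 4 fell with fasting in LWT, and 7 rose and 6 fell in LKO, with median log2 fold changes of 0.31 and 0.40 (all genes 21.7% and 23.6% in LWT, 20.4% and 22.9% in LKO). Genotype comparisons called 3 higher and 1 lower in fed LKO mice, and 4 higher and 3 lower in fasted LKO mice. Igfbp1, a secreted binder of insulin-like growth factors, had Irs2's pattern of calls: it rose with fasting by 1.99 in LWT (adjusted p = 1.06e-05), and by 1.73 among LKO mice (adjusted p = 0.000265), and was higher in LKO by 1.89 fed (adjusted p = 0.000194) and 1.63 fasted (adjusted p = 0.00125). Pck1 and G6pc, enzymes of glucose production, were 0.81 (adjusted p = 0.00449) and 0.58 (adjusted p = 0.0116) higher in fed LKO mice. Pdk4, which restrains glucose oxidation, rose by 2.64 in LWT (adjusted p = 4.91e-07), and by 4.32 among LKO mice (adjusted p = 2.52e-09), with an interaction of 1.68 (adjusted p = 0.0286). In all, 2 of the 16 had an interaction that was higher in LKO, the other being Mttp (0.52, adjusted p = 0.000565), which loads lipid onto lipoproteins. Klf15 had the 1 that was lower (-0.82, adjusted p = 0.0235). Of all genes, 5.35% had an interaction called higher and 4.99% called lower. Bcl6, a repressor, fell by 1.75 in LWT (adjusted p = 0.00591) and fell by 2.47 in LKO (adjusted p = 0.00118).

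**Figure D4:**
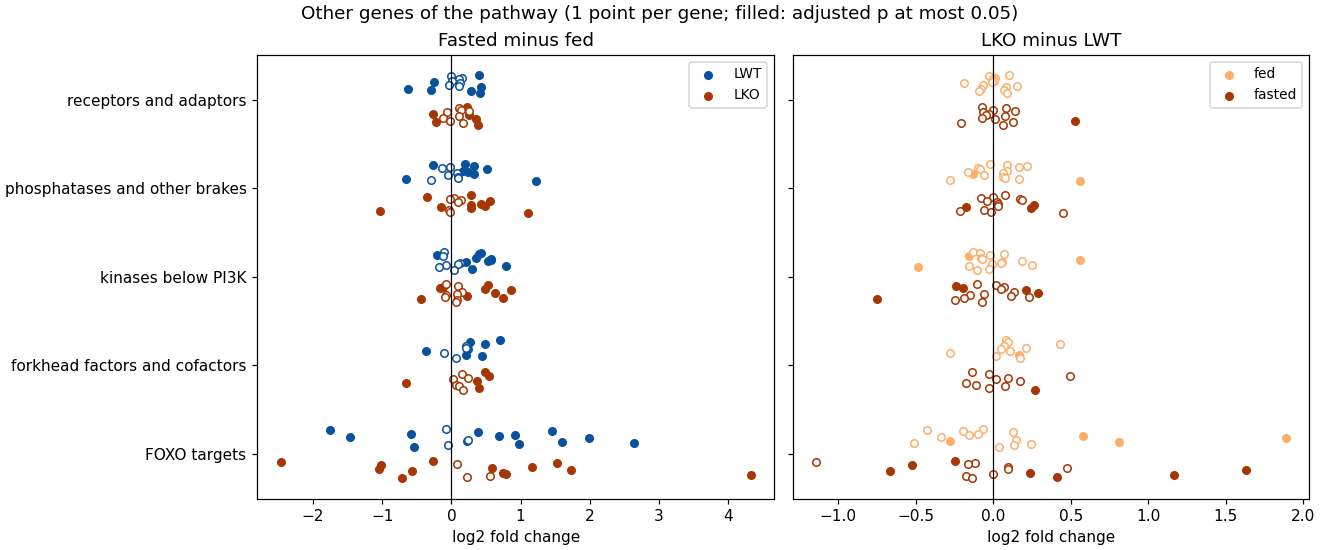
Log2 fold changes (x axis) of the other genes of the pathway by list (y axis), for fasting in each genotype and for LKO against LWT in each feeding state, with 1 point per gene and filled points for an adjusted p of at most 0.05. FOXO targets spread most for fasting in LKO, from Bcl6 to Pdk4, and most points of the genotype comparisons are open.

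The genes whose profile was most like that of Irs2 were found by Pearson's r over the 24 arrays among 14335 genes whose probe matched a RefSeq accession. They were Gadd45g (r = 0.955), a stress-inducible growth arrest gene, Mbd6 (0.947), Gfra1 (0.946), a coreceptor for glial-derived neurotrophic factor, Zfp113 (0.946) and Flvcr2 (0.943), a membrane transporter. These values describe 24 arrays that share 4 group means. After each group's mean was removed, r was 0.603 for Gadd45g, 0.633 for Mbd6, 0.223 for Gfra1, 0.555 for Zfp113 and 0.266 for Flvcr2. Gadd45g, chosen for this likeness, is given with no test: its fitted log2 differences were 3.01 for fasting in LWT, 2.14 for fasting in LKO, 1.95 for genotype in fed mice and 1.08 in fasted mice.

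**Figure D5:**
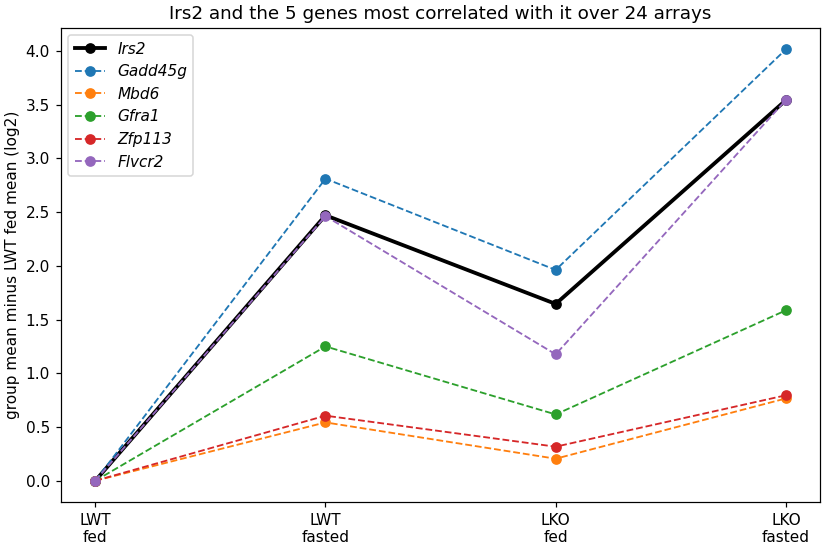
Group means minus the LWT_Fed mean (y axis, log2) of Irs2 and the 5 genes most correlated with it, in the 4 groups (x axis). All 6 genes are lowest in LWT_Fed and highest in LKO_Fasted, and Mbd6 and Zfp113 span under 1 log2 unit.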

How the data were processed

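Liver RNA of 24 mice was labelled with Cy3 and hybridised by the authors to 1-colour Agilent arrays of 60-base probes, scanned and read with Feature Extraction 10.10.1.1. The deposited scanner values are intensity per spot (median, mean, background and processed signal), not scaled between arrays. The series table holds log2 values that the authors filtered, corrected for washing bath and quantile normalised, and it served as an alternative. Probes well above background on at least 5 of 6 arrays of a group were kept (32197), median signals log2 transformed and quantile normalised in limma 3.58.1 (R 4.3.3), and 46 missing values, none in the 10 genes, set to the group mean. All arrays entered one weighted model with slide as a term (3 slides, each with 2 arrays per group), with two-sided p-values adjusted over all probes (Benjamini-Hochberg). Means are raw and fold changes fitted. The number of arrays limits precision. The fit was tested on simulated data for fasting in LWT alone, with independent noise and no slide effects, so the other comparisons were not tested this way. All 10 genes are named, with at most 3 called genes per list and contrast. A list gene that is part of the counts is not reported here. Genes and lists were chosen with earlier results of these data known. Alternatives were background correction, scaling, filters, weights, block, probe choice and leaving out arrays.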

Additional observations from a re-analysis of the deposited data

Results flagged for a closer look

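The fasting response differed between genotypes for 5 of the 10 genes, by the interaction term of limma (adjusted p of at most 0.05), where 5.35% of all genes were called higher and 4.99% lower in LKO. The log2 difference was -0.66 for Foxo1, -0.65 for Irs1, -0.45 for Insr, -0.49 for Foxo3 and 0.45 for Grb14. Foxo1 and Irs1 kept this call under every alternative run.

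Of 40 sets of 6 mice (each gene in each group), 4 held a mouse standing apart from the rest by Dixon's criterion, and chance flags about 1 in 20 such sets. Foxo1 read 11.92 in LWT_Fed replicate 6, where the nearest other mouse read 11.77. Insr read 8.61 in LKO_Fasted replicate 5, with the nearest at 8.41. Grb14 read 12.02 in LWT_Fed replicate 3 (nearest 12.30) and 12.26 in LWT_Fasted replicate 3 (nearest 12.47).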

How the results depend on the processing

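Of 26 called differences, none changed sign under any of 955 alternative values, and 81 of these values missed the threshold, most of them for Foxo3, Akt2 and Trib1. Of 880 values for the 24 uncalled differences, 21 passed, 7 each for Akt1 and Irs1 with fasting in LWT. Without array weights 2 members had an interaction (5 with them), with each gene's mean over kept probes 3, and fasting in LKO gave 5 calls (8 in the joint fit) when those groups were fitted alone. The fold minimum left 2 for fasting in LWT, 2 in LKO, 1 for genotype in fed mice, 2 in fasted mice and 2 for the interaction. Uncalled values near 0 changed sign. For Akt1 in fasted genotypes they were 0.0082 with normexp, 0.031 without weights, 0.013 without the slide term, 0.011 with a replicate block, 0.054 without LKO_Fasted replicates 1 and 2 and 0.022 with mean probes. With mean probes, Akt2 gave -0.076 for fasted genotypes and -0.12 for the interaction, Grb14 0.043 and Trib1 -0.062 for fed genotypes. Median centring gave -0.00014 for Akt2 and -0.048 for Foxo1 in fed genotypes, and Foxo1 in fasted LKO was -0.027 without LKO_Fasted replicates 1 and 2. Leaving out single arrays gave -0.064 to 0.035 for Akt1 in fasted genotypes, -0.0072 to 0.036 for the Akt2 interaction, -0.079 to 0.13 for Foxo1 fasting in LKO, -0.039 to 0.16 for Foxo1 in fed genotypes, -0.19 to 0.062 for the Grb10 interaction and -0.015 to 0.12 for Grb10 in fasted genotypes. The cause was not tested.

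Replicate numbers did not pair the mice: over 36 same-number pairs r ran from -0.18 to 0.28, with 4 above 0.1, and 2 of 24 arrays correlated best with their own number. A replicate block in place of slide left 49 of 50 gene-by-comparison results on the same side of the threshold and lost the call of Akt2 for fasting in LKO (-0.10, adjusted p = 0.133). Dim probes, as that of Grb10, limit what can be read near background.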
